A study of Mus musculus with 3 samples.

Results

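Protein phosphatases and their regulators were examined in area CA1 of the mouse hippocampus, as 118 probe sets of 87 genes among 12422 probe sets and 8251 named genes of an oligonucleotide array. The members are all probe sets that the platform annotation assigns to a single gene whose symbol begins with Ppp and a digit, Ppm1, Ptpn, Ptpr, Ptp4a, Dusp or Inpp. They fall into serine/threonine phosphatases (42 probe sets, 35 genes), tyrosine phosphatases (51 probe sets, 35 genes), dual specificity phosphatases (13 probe sets, 9 genes) and inositol phosphatases (12 probe sets, 8 genes). The symbol rule also takes in Ptprcap, which encodes a CD45-associated protein and not a phosphatase. A further 2 probe sets that match Ptp4a1 or Ppp2r3c together with another gene were left out.

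All 3 arrays belong to 1 group: young male C57BL/6J mice (an inbred strain) given contextual fear conditioning, with RNA taken 6 h after the last shock. Each mouse met 3 shocks of 1 s and 0.5 mA, each after 2 min in the context, and went back to its home cage 1 min after the last. No unconditioned group is analysed here, so no level can be read as a response to training, and whether the RNA on an array came from 1 animal or several is not stated. The p-values therefore measure only the spread between these 3 samples, which may be technical.

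Protein phosphatases remove phosphate from serine, threonine or tyrosine and so oppose the kinases of synaptic signalling. In hippocampal neurons, calcineurin and protein phosphatase 1 (PP1) are known for their part in long-term depression and in limits on memory, striatal-enriched tyrosine phosphatase (STEP) for removal of glutamate receptors from synapses, and the dual specificity phosphatases for switching off mitogen-activated protein (MAP) kinases. Inositol phosphatases act on soluble inositol phosphates or on membrane phosphoinositides, which carry calcium and growth signals.

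The values below are deposited signal intensities on a linear scale, in the order array 1, array 2 and array 3, or mean ± SD over them (n = 3). A signal is called above threshold when it exceeds 175, the median of all deposited values. No detection calls were used, and a gene under this line may still be transcribed. Probes differ in how well they bind, so signals of different probe sets were not set against each other, and in dissected tissue fewer cells of a type and less RNA per cell cannot be told apart. The median signal of an array lay between 171 and 177, and 6 to 18 probe sets carried identical values in any pair of arrays. The CA1 pyramidal markers Wfs1, Pou3f1 and Dcn were above threshold on all 3 arrays, and of the dentate granule markers Prox1 was below it on all 3 while Calb1 and Dsp were above. Markers of other cells were present too: on every array the threshold was passed by 5 of 5 astrocyte, 4 of 4 oligodendrocyte, 5 of 6 microglial or leukocyte and 2 of 5 endothelial genes. It was also passed on every array by 3 of 4 interneuron genes (not Gad2) and by 1 of 3 red blood cell genes, Hba-a1. The striatal marker Drd2 passed it on 2 of 3 arrays.

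Most phosphatase probe sets were above threshold, and the families differed in how many were. On all 3 arrays, 68 of the 118 members were above threshold (57.6%), where the share over all probe sets was 43.9%. The mean signal was above threshold for 71 members, where the share over all probe sets was 50.1%. By family the count was 10 of 12 for inositol phosphatases, 29 of 42 for serine/threonine phosphatases, 7 of 13 for dual specificity phosphatases and 22 of 51 for tyrosine phosphatases. Counted by gene, 63 of 87 had at least 1 probe set above threshold on all arrays, where the share over all named genes was 52.9%, and 17 of 87 had every probe set below it on every array, where the share over all named genes was 34.7%. These shares are a description of the probe sets on this array.

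**Figure D1:**
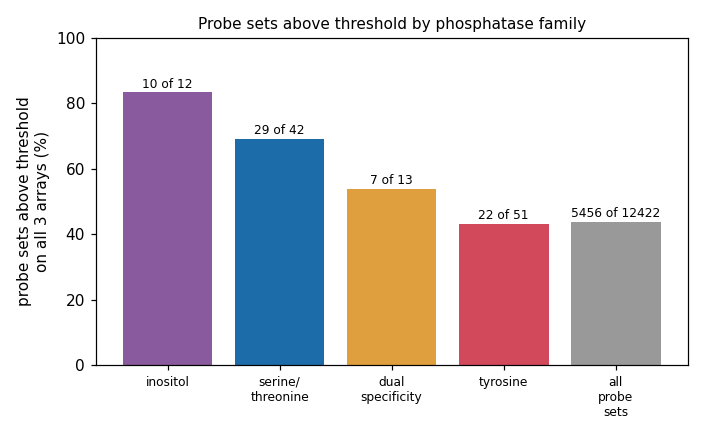
Percent of probe sets with a signal above threshold on all 3 arrays (vertical axis, from 0) for each phosphatase family and for all probe sets, with the counts above the bars. The inositol family stands at 10 of 12 and the tyrosine family at 22 of 51, beside 5456 of 12422 for all probe sets.

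Some of the members' promoters held a sequence feature that the rule did not use. The palindrome TGACGTCA, the full cyclic AMP response element known as a binding sequence of CREB, a transcription factor with a known role in memory, was searched in RefSeq windows of 250 bases before to 50 after the gene start (GRCm38.p6). Being its own reverse complement, it reads alike on both strands. It stood in a window of 10 of the 69 member genes that had one (14.5%). The share was 3.16% over the 6576 array genes with a window and 2.03% over all 27025 genes searched. Counted by window, the palindrome stood in 11.6% of member windows, 2.6% of array gene windows and 1.79% of every window that was searched. Among genes above threshold on all arrays it was found for 8 of 53 members (15.1%) and 138 of 3539 array genes (3.9%). The member windows held a median of 22 CG dinucleotides, against 18 in those of all array genes. The palindrome was chosen after 5 other strings had been searched as well: its parts TGACG (27 of 69 members, against 20.1% of array genes) and CGTCA (23 of 69, against 19.7%), the TATA sequence TATAAA (4 of 69, against 8.27%) and a pair of longer strings, one found in no window of either set and the other in 1 of 69 members, against 0.106% of array genes. These 5 were read on the strand of the gene only. A match is a string of letters, not a shown binding site. The 9 matches whose 30-base setting lies wholly before the gene start are printed here, with the palindrome in capitals.
Dusp1 (chr17:26508597-26508626, minus strand): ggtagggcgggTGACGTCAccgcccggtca
Dusp8, distal (chr7:142095373-142095402, minus strand): gcccgctccgcTGACGTCAcctgcccccga
Dusp8, proximal (chr7:142095329-142095358, minus strand): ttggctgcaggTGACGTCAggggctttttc
Inpp4a (chr1:37299753-37299782, plus strand): ccactcctgggTGACGTCAcataagagggt
Ppm1a (chr12:72761064-72761093, plus strand): gcgcagggcagTGACGTCAccgccgcccct
Ppp2ca (chr11:52098787-52098816, plus strand): tgacgctggcgTGACGTCAccacgccgggc
Ptpru (chr4:131838301-131838330, minus strand): gcccgggggccTGACGTCAgcgccccgctc
Ppp1r12c (chr7:4501731-4501760, minus strand): ggtcggcgccgTGACGTCAatataccgagc
Ptpn11 (chr5:121191446-121191475, minus strand): gcggcgcgcgaTGACGTCAcgcaggcgccg
The first base of the palindrome lay at -143 from the gene start for Dusp1, at -107 and -63 for Dusp8, at -74 for Inpp4a, at -136 for Ppm1a, at -26 for Ppp2ca, at -41 for Ptpru, at -69 for Ppp1r12c and at -67 for Ptpn11. The remaining matches were at -12 in Ppp1r15a and at 5 in Ptprs. Of these 10 genes, Ppp1r12c and Ptpn11 were below threshold on all arrays and the other 8 were above it on all.

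Calcineurin, the calcium- and calmodulin-dependent phosphatase made of a catalytic A and a regulatory B subunit, was represented by 4 genes. Ppp3ca, the A alpha subunit, gave 9787, 8421 and 13124, highest on array 3. The calcium-binding B subunit Ppp3r1 gave 8853, 14518 and 9829, highest on array 2. The partners of the same enzyme were thus in a different order across the arrays, with a highest to lowest ratio of 1.61 for Ppp3ca and 1.63 for Ppp3r1. Ppp3cb, the A beta subunit, gave 767, 717 and 573. The A gamma subunit Ppp3cc, best known from testis, gave 169.8, 224 and 187 and so lay below the threshold on array 1. Ratios of highest to lowest array here and below are taken after the arrays were scaled to a common median.

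PP1 works as a catalytic subunit bound to one of many targeting or inhibitory proteins, and both catalytic subunits with a probe set were above threshold. Ppp1cb gave 1131, 1349 and 1666 and Ppp1cc gave 1374, 1207 and 1323, with opposite ends of the range on array 1. Of 11 regulator genes 8 were above threshold on all arrays. Inhibitor-1, encoded by Ppp1r1a and active once phosphorylated by protein kinase A, gave 331, 366 and 356, and the inhibitor gene Ppp1r14b gave 642, 624 and 679. Both were steady between arrays, at ratios of 1.11 and 1.13. Inhibitor-2 (Ppp1r2) was less steady at 234, 347 and 181, a ratio of 1.85. Its second probe set, of the sequence-family type, was below threshold at 91.4, 15.3 and 111.

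The genes that direct PP1 to the translation factor eIF2 alpha were both measured. Ppp1r15a, the stress-inducible form also called GADD34, gave 246.5, 285 and 236. Ppp1r15b, the constitutive form, gave 682, 638.5 and 983, highest on array 3. Ppp1r7, a conserved PP1-binding protein, gave 586, 766 and 720.1. The cytoskeletal targeting gene Ppp1r18 gave 1244, 974 and 1270.1, and Ppp1r21 gave 2299, 2513 and 2226. The other 3 regulators were not above threshold on all arrays. Ppp1r17, a substrate of cyclic GMP-dependent kinase in cerebellar Purkinje cells, gave 148, 156.5 and 189.6, and both probe sets of Ppp1r12c, a myosin phosphatase targeting subunit, gave at most 29.7. Ppp1r3c, which brings PP1 to glycogen, gave 119, 248 and 32.0, above threshold on array 2 alone.

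PP2A is a trimer of a scaffold, a catalytic and a variable regulatory subunit. Its alpha scaffold Ppp2r1a gave 10066, 9111 and 10872, a ratio of 1.23. The beta scaffold Ppp2r1b was below threshold on all arrays at 135, 110.1 and 77.9. The catalytic subunits Ppp2ca, at 447, 367 and 481.5, and Ppp2cb, at 2616, 2582 and 2839.8, were both lowest on array 2. Among regulatory subunits, which set where the enzyme acts, the neuronal Ppp2r2b gave 3379.5, 4078 and 3005 while Ppp2r2a gave 234, 110.5 and 171, above threshold on array 1 alone. The B56 subunits Ppp2r5a and Ppp2r5c gave 1188 ± 81.4 and 3751 ± 279 and kept within a ratio of 1.19. The third B56 gene, Ppp2r5d, gave 261, 536 and 259.6, which set array 2 apart.

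The remaining serine/threonine enzymes were above threshold at their brightest probe set. The catalytic genes Ppp4c and Ppp6c, relatives of PP2A, gave 708, 478.5 and 718, and 670.3, 569 and 727, both lowest on array 2. Their partner subunits Ppp4r2 and Ppp6r3 gave 290.0 ± 41.5 and 1477 ± 51.5. Ppp5c, a phosphatase bound to the chaperone Hsp90, gave 231, 460.5 and 212, highest on array 2. The metal-dependent PPM enzymes are single-chain phosphatases that need no targeting subunit. Ppm1a gave 1073, 884 and 839, and the brighter probe set of Ppm1m gave 503, 396 and 427. Ppm1g, linked to splicing and chromatin, gave 196, 509.5 and 305. Ppm1b gave 182, 608 and 227 at its brightest probe set, and both genes were thus highest on array 2.

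**Figure D2:**
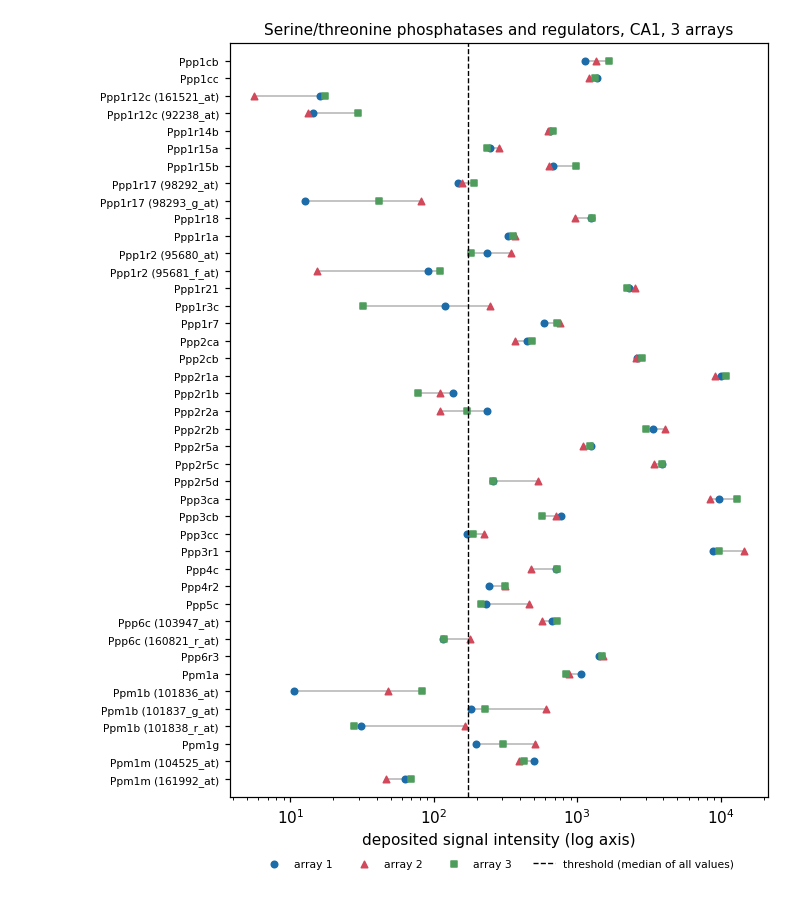
Deposited signal (horizontal log axis) of the 42 serine/threonine probe sets on arrays 1 (circles), 2 (triangles) and 3 (squares), ordered by complex from PP1 at the top to PPM at the bottom, with a grey line from lowest to highest array and the threshold dashed. Array 2 stands to the right of the others for Ppp2r5d, Ppp5c, Ppm1g and 2 probe sets of Ppm1b, while Ppp3ca is highest on array 3.

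Receptor-type tyrosine phosphatases span the membrane, and several serve as adhesion molecules at synapses. Of 18 such genes 12 were above threshold on all arrays at 1 or more probe sets. The LAR family, presynaptic organisers that bind partners across the cleft, was represented by 3 genes. Ptprs gave 2883.5, 3618 and 2491 and Ptprf gave 559, 497.5 and 659, in opposite orders of the arrays. Ptprd depended on the probe set: one gave 1341, 743 and 1394.5, another 755, 660.2 and 643, and the third lay below threshold at 35.4, 35.8 and 21.9.

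Catalytically inactive relatives found in dense-core vesicles gave contrasting results. Ptprn, also known as IA-2, gave 2471, 3629 and 2740.0, all above threshold. Ptprn2, phogrin, gave 54.4, 149 and 72.2, all below it. Both were highest on array 2. The neuronal MAP kinase phosphatase gene Ptprr gave 1575, 1393 and 1651. Ptpra, an activator of Src kinases, gave 620.3, 685 and 749, and its relative Ptpre gave 984.5 ± 91.9. The adhesion receptors Ptpru and Ptprk gave 734, 1203 and 853, and 418, 403 and 352, whereas both probe sets of Ptprm were below threshold on all arrays. The 3 probe sets each of Ptprj and Ptprv were below it as well, at most at 173 and 169. Ptpro gave 364, 309 and 517, and Ptprg gave 406 ± 27.2.

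The 3 tyrosine phosphatase genes best known from leukocytes were under threshold on all arrays. Ptprc encodes CD45, a leukocyte antigen, and its 3 probe sets gave between 1.8 and 36.6. Ptpn6 encodes SHP-1 of blood cells and gave 6.7, 19.0 and 96.1, and both probe sets of the lymphoid gene Ptpn22 gave at most 75.2. On the same arrays 5 of 6 microglial or leukocyte markers were above threshold, and Itgam was at 12.8, 31.8 and 14.9. All 6 summed to 3379, 4038 and 3959.6, a sum that hides different orders of the arrays. C1qa, C1qb, Cd68 and Cx3cr1 were highest on array 2, while Csf1r was lowest there at 1616, 1266 and 2058. Ptprcap gave 342 ± 21.3. Ptprb, an endothelial phosphatase, gave 199.9, 181 and 136 beside endothelial markers with a summed signal of 887, 895 and 1171. Of these markers Cldn5 gave 310, 304 and 540 and Flt1 gave 284, 298 and 266, and Cdh5 and Tek were below threshold on all arrays. Ptprz1, a proteoglycan receptor of astrocytes and oligodendrocyte precursors, gave 693, 734 and 419 at one probe set and 1435, 1015.5 and 1431 at another. The first was lowest on array 3 and the second on array 2. Of the 5 astrocyte markers Aqp4, Slc1a2 and Aldoc were lowest on array 3 and Gfap and Gja1 on array 2, and all 5 summed to 20550.2, 19474 and 18736. The part of cell composition in these values was not tested.

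Among 14 non-receptor tyrosine phosphatase genes 5 were above threshold on all arrays. Ptpn5, which encodes STEP, gave 1090.0, 986 and 1118, a ratio of 1.17. Ptpn1, an enzyme of the endoplasmic reticulum that acts on insulin and leptin receptors, gave 1175, 979.6 and 963, and Ptpn9 gave 1257 ± 20.7. Ptpn9 was among the steadiest members, at a ratio of 1.04. Ptpn23, a gene of endosomal sorting, gave 603, 464 and 412, and Ptpn14 gave 195 ± 17.0. Ptpn11, which encodes the widely expressed SHP-2, was below threshold at 11.5, 24.9 and 31.8, as were Ptpn12, Ptpn18, Ptpn20 and Ptpn21 on all arrays. Ptpn13 gave 206, 147 and 193, and Ptpn2 gave 177, 79.3 and 71.0. The prenylated PTP4A phosphatases were both above threshold, with Ptp4a2 at 1579 ± 163 and Ptp4a3 at 487 ± 54.0.

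**Figure D3:**
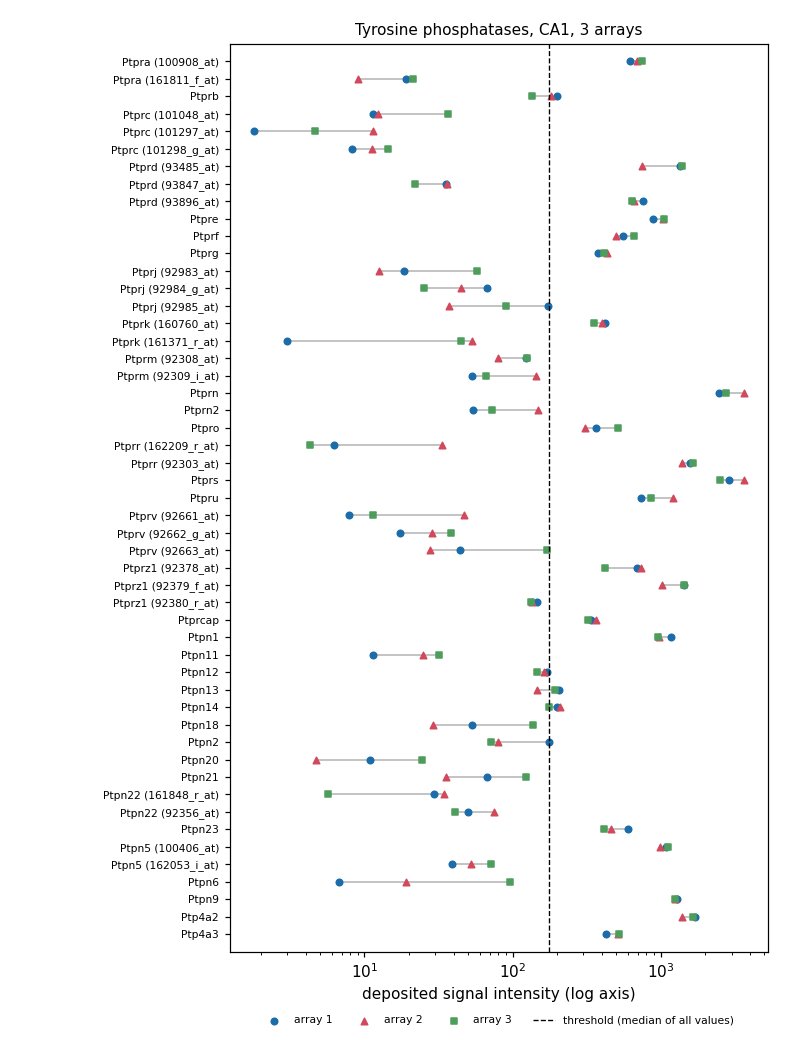
Deposited signal (horizontal log axis) of the 51 tyrosine phosphatase probe sets on arrays 1 (circles), 2 (triangles) and 3 (squares), receptor types at the top, with a grey line from lowest to highest array and the threshold dashed. The 3 probe sets of Ptprc lie at the far left, at 36.6 or less, and probe sets of Ptprd, Ptprr, Ptpn5 and Ptprz1 fall on both sides of the threshold.

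Dual specificity phosphatases act on phosphotyrosine and phosphothreonine, and many of them inactivate MAP kinases. Of 9 genes 6 were above threshold on all arrays. Dusp1, the product of an immediate-early gene that acts on MAP kinases in the nucleus, gave 779, 723 and 772, a ratio of 1.11. Its promoter and that of Dusp8 hold the palindrome printed above. Dusp8, a phosphatase for JNK and p38, gave 1385, 1439.7 and 1429 at its brightest probe set. Both were steady at these probe sets, whereas the second probe set of Dusp8 gave 792, 604 and 886.

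Dusp6, a cytoplasmic MAP kinase phosphatase, gave 782.5, 1207 and 919, highest on array 2. Dusp2, a nuclear enzyme best known from lymphocytes, gave 352, 276 and 251. Dusp12 gave 303, 283 and 221 and Dusp19, linked to the JNK pathway, gave 303, 426 and 249. The 3 genes under threshold were Dusp9 and Dusp16, both MAP kinase phosphatases, and Dusp11, which acts on RNA. The brighter Dusp16 probe set gave 144 ± 6.82, below threshold but steady.

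Of the MAP kinases on which these enzymes act, 8 of 11 listed genes had a single-gene probe set. Of these 8, 5 were above threshold on all arrays, where the share over all named genes was 52.9%. The JNK genes Mapk10 and Mapk8 gave 4836 ± 237 and 1137 ± 59.6, the p38 gene Mapk14 gave 1134 ± 150.0, and Mapk9 passed on array 2 alone, at 93.0, 291 and 105.

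All 8 inositol phosphatase genes had at least 1 probe set above threshold on every array. Inpp4a, which removes a phosphate from membrane phosphatidylinositol bisphosphate, gave 3173, 3092 and 3069. Its ratio was 1.03, the smallest of any member after scaling to a common median, while without scaling, after quantile normalization and after cyclic loess Ptpn9 had a smaller log2 range than Inpp4a. The only Inpp4a probe set has an extra letter in its name, which marks a reduced or shared design. Inpp1, a lithium-sensitive enzyme of inositol recycling, gave 1115, 1008 and 1035 at one probe set, also so marked, and 211.5, 221 and 163 at the other. Inpp5a, which inactivates the calcium-releasing inositol trisphosphate, gave 380.0, 587 and 639.5, and 257, 452 and 345. Both of its probe sets were lowest on array 1.

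Most other inositol phosphatases were highest on array 1. Inpp5j, which acts on phosphoinositides in neurites, gave 1866.5, 1630.0 and 1735, Inpp5k gave 796, 585 and 689, and Inppl1, which encodes SHIP2, gave 684, 579 and 431. Inpp5b gave 709, 515 and 655 and, at a second probe set, 829.8, 732 and 757. Inpp5d encodes SHIP1 of blood cells and microglia and gave 346, 225 and 209 at one probe set, but 31.6, 37.5 and 24.6 at the other. In all, 8 of 11 inositol probe sets with a mean above threshold were highest on array 1, where the share over all probe sets was 29.3%. In the other families the count was 2 of 7 for dual specificity, 4 of 30 for serine/threonine and 5 of 23 for tyrosine phosphatases. The inositol count was also 8 of 11 without scaling, after quantile normalization and after cyclic loess. The share of 29.3% belongs to scaling to a common median, and shares for the other scalings are not reported here. The 11 probe sets include 2 each of Inpp1, Inpp5a and Inpp5b, and the 8 include Inpp4a, whose ratio was only 1.03.

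**Figure D4:**
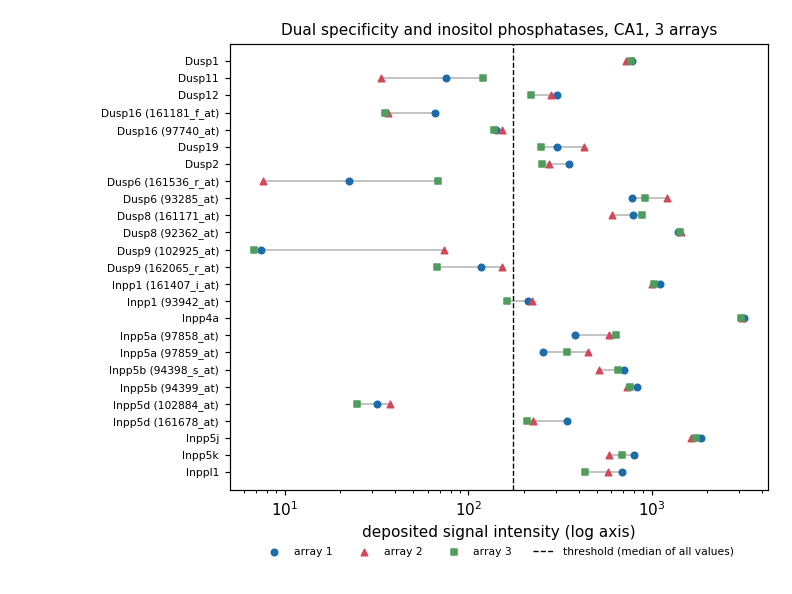
Deposited signal (horizontal log axis) of the 13 dual specificity and 12 inositol phosphatase probe sets on arrays 1 (circles), 2 (triangles) and 3 (squares), with a grey line from lowest to highest array and the threshold dashed. Dusp1, Inpp4a and the brightest probe set of Dusp8 have nearly coincident points, and the 2 probe sets of Inpp5d fall on either side of the threshold.

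Among the 71 members with a mean above threshold, the median SD of log2 signal was 0.21, against 0.25 over all 6218 such probe sets, and 50 of the 71 kept the highest and lowest array within 1.5-fold, where the share over all probe sets was 62.3%. A range over 2-fold was found for 4 members (5.63%), where the share over all probe sets was 12.1%. These were Ppm1b at 3.33-fold, Ppm1g at 2.59-fold, Ppp5c at 2.10-fold and Ppp2r5d at 2.05-fold, all serine/threonine phosphatase genes and all highest on array 2. The share of all 6218 probe sets with a range over 2-fold and the highest signal on array 2 was 6.03%, and of the 755 with such a range 49.7% were highest on that array.

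None of these ranges passed the variance test, a comparison of each probe set's variance with that of probe sets of like intensity. With limma over all 6218 probe sets, 0 of the 71 members had an adjusted p under 0.05 (0.0161% over all probe sets, which is 1 probe set). At an unadjusted p under 0.05 1 member remained, Ppm1b, whose limma adjusted p was 0.86, and the share over all probe sets was 5.21%. The adjusted p of the 71 lay between 0.86 and 0.998. Without array 2 the count over 2-fold was 0 of 72 members, where the share over all probe sets was 3.53%. Without array 1 it was 2 of 70, Ppm1b and Ppp5c (2.86%, against 7.8% over all probe sets). Without array 3 it was 4 of 72, with Ppp1r3c in place of Ppp5c (5.56%, against 6.61%).

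Control probe sets and markers of choroid plexus also differed between the arrays. For Gapdh, the probe set at the 3' end of the transcript read 3.99, 1.21 and 3.94 times the one at the 5' end, and for Actb 2.57, 1.86 and 3.50 times. The choroid plexus marker Ttr gave 1333.5, 4257 and 94.2, Folr1 gave 54.5, 196.3 and 39.9, and Kl gave 251.9, 366 and 351. The 3 markers summed to 1639.9, 4819 and 485. The part of either in the 4 ranges was not tested. The array on which a member was highest depended on the scaling: after scaling to a common median 19, 22 and 30 of the 71 members were highest on arrays 1, 2 and 3, and without scaling 24, 26 and 21. After scaling to a common median the shares over all probe sets were 29.3%, 33.2% and 37.5%. Those without scaling are not reported here, so the unscaled counts have no share beside them. With the same common median, the lowest signal was on arrays 1, 2 and 3 for 20, 32 and 19 members. The shares over all probe sets were then 29.3%, 42.3% and 28.4%.

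**Figure D5:**
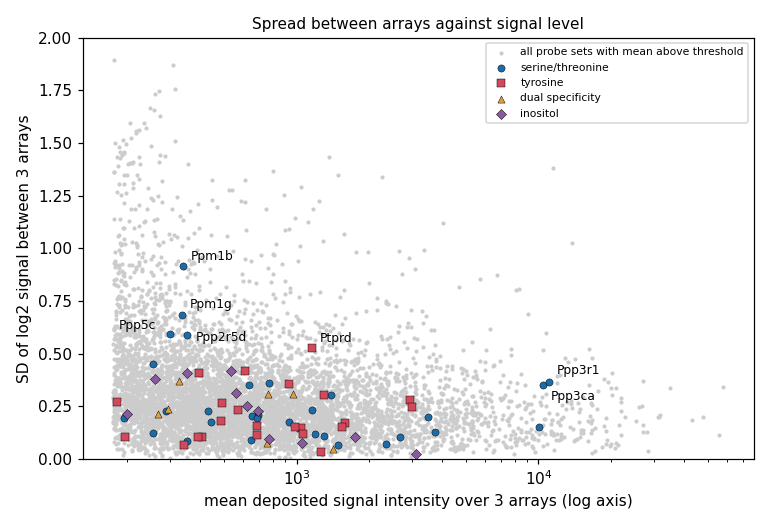
SD of log2 signal between the 3 arrays (vertical axis) against mean deposited signal (horizontal log axis) for all 6218 probe sets with a mean above threshold (grey) and the 71 phosphatase members, coloured by family. Ppm1b, Ppm1g, Ppp5c and Ppp2r5d have the largest spread among members but lie within the grey cloud, and 3 grey probe sets are above the top of the plot.

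Of 25 member genes with several probe sets, 11 had 1 or more above threshold on all arrays and 1 or more below it on all arrays, 3 had all above, 8 had all below and 3 fell in none of these classes. Over all 2073 genes with several probe sets the shares of the first 3 classes were 35.5%, 19.1% and 21.7%. The array names mark probe sets of reduced or shared design with an extra letter, and of the 23 members so marked 5 were above threshold on all arrays, against 63 of the 95 with the plain name. Over all probe sets these shares were 35.9% and 46.3%. Of 6 genes with at least 2 probe sets whose mean was above threshold, the arrays stood in the same order at both for Inpp5b alone, and in different orders for Dusp8, Inpp1, Inpp5a, Ptprd and Ptprz1. Over all such genes the order was the same for 19.1%. For Ppm1b, the probe set past 2-fold (182, 608 and 227) was joined by a weak one highest on the same array (31.1, 165 and 28.0), whereas the plain one gave 10.6, 47.9 and 83.4.

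Other phosphatases and the partners of the members were read from the same arrays. Of 33 listed phosphatase genes whose symbols the rule does not take, 22 had a single-gene probe set and 11 were above threshold on all arrays, among them the PP2A activator Ptpa at 2072, 2689 and 1630.4, the low molecular weight tyrosine phosphatase Acp1 at 843.5 ± 50.4 and the lithium-sensitive Impa1 at 597 ± 100.4. Of 25 listed inhibitors, anchors and partners 14 had a probe set and 11 were above threshold on all arrays. Over all named genes, 52.9% had at least 1 probe set above threshold on all arrays. The calcineurin inhibitor Rcan1 gave 725, 1219 and 727.5, highest on array 2 as Ppp3r1 was. Fkbp1a, whose product binds calcineurin together with the drug FK506, gave 18917, 14500.3 and 18798, lowest on array 2 as Ppp3ca was. Over all probe sets with a mean above threshold, 33.2% were highest and 42.3% lowest on array 2. The PP2A inhibitors Set and Anp32a gave 1979 ± 261 and 3101 ± 671, and the calcineurin-dependent factor gene Nfatc2 gave 381 ± 37.0. In the lists of other phosphatases, of partners and of MAP kinases, 13, 11 and 5 genes had a mean above threshold. Of these, 0 had a limma adjusted p under 0.05, 0 an unadjusted p under 0.05 and 0 a range over 2-fold. The shares over all probe sets with a mean above threshold were 0.0161%, 5.21% and 12.1%.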

How the data were processed

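The deposited table holds 1 signal intensity per probe set and array for 12488 probe sets on a linear scale. How the authors computed and scaled the intensities is not given in the sources used here. Each array's 2% trimmed mean was 500.3. All 3 columns belong to the samples. The 66 control probe sets were left out. Of the other 12422, 10833 had 1 gene symbol, 396 several and 1193 none in the platform annotation. Symbols were checked against the GRCm38.p6 gene table through Entrez identifiers, and 0 members changed. For the spread, arrays were scaled to a common median over probe sets with a mean above 175 (the threshold, the median of all values), by 0.991, 0.987 and 1.02, floored at 47.5 (the 25th percentile) and log2-transformed. For probe sets with a mean above threshold, limma 3.58.1 (run in R 4.3.3) tested the variance between arrays against a robust intensity-dependent prior. Benjamini-Hochberg adjustment was over all these probe sets at 0.05. The procedure was also run on simulated data, and how often it calls differences of the size seen here is not reported. A gene outside the members was taken at its brightest probe set. Promoter windows come from RefSeq, with 18 members not matched. By rule, per-array values are given for listed catalytic and regulatory subunits and enzymes, the 12 members with the largest log2 range and genes whose probe sets put the arrays in different order. Other members with values were chosen after these were seen. Members and lists were chosen with earlier results of these data known. Alternatives were other scalings, floors, thresholds, priors, probe set types and symbols, and leaving out each array. The number of arrays limits the precision.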

Additional observations from a re-analysis of the deposited data

How the results depend on the processing

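No paired analysis was possible because all samples belong to 1 group. The count of phosphatase probe sets above threshold on all arrays was 68 of 118 in the main setting. It was 84 with the threshold at the 25th percentile, 39 at the 75th and 69 to 70 when an array was left out. It has no value without a threshold. The share over all probe sets was 43.9% in the main setting and is not reported here for the others. By mean signal, 95 of 118 members and 9627 of 12422 probe sets passed the 25th percentile. The 75th was passed by 44 members and 3109 probe sets. The count with a range over 2-fold was 4 of 71 in the main setting (5.63%, against 12.1% over all probe sets). It was 17 of 95 at the 25th percentile (17.9%, against 25.2%) and 0 of 44 at the 75th (against 6.59%). With no threshold it was 18 of 118 (15.3%, against 19.7%). When an array was left out it was 0 to 4, where the shares over all probe sets were 3.53% to 7.8%. The count past the limma variance test was 0 throughout except with no threshold, where it was 12 members among 1375 probe sets called. That setting lets in probe sets whose values all lie at the floor, and the cause was not tested. The count highest on array 1 was 19 of 71 members in the main setting and 42 of 118 with no threshold. In the latter, probe sets at the floor on all arrays are ties and were counted for array 1. With array 2 or array 3 left out it was 30 to 40 of 72, where only the remaining pair of arrays was compared. At the 75th percentile 13 of 44 members were highest on array 2 and 18 of 44 on array 3. With the main threshold these were 22 of 71 and 30 of 71. Of the listed other phosphatase genes, inhibitors and MAP kinases, 22, 14 and 8 had a probe set. Among these genes 27 were above threshold on all arrays and 15 at the 75th percentile, an alternative chosen after seeing the data. In the main setting the share over all named genes was 52.9%. The median log2 SD of members lay between 0.12 and 0.25 over all alternatives. Of 960 alternative log2 ranges of single probe sets, 81 moved by more than that probe set's SD, 10 of them with all arrays kept.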
